A study of Mus musculus with 52 samples.

Results

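The 9 cytokine genes by which activated type 1 conventional dendritic cells (cDC1) act on T cells and natural killer (NK) cells were described across all groups of the study: Il12a, Il12b, Il27, Ebi3, Il15, Il6, Ifnb1, Ifnl2 and Ifnl3. They were taken by symbol from the mouse count table, which holds 23135 genes, and all 9 members were found. IL-12 is a pair of the chains encoded by Il12a (p35) and Il12b (p40), and it drives interferon-gamma production by T and NK cells. IL-27 pairs the products of Il27 (p28) and Ebi3, IL-23 shares the p40 chain, and IL-35 is described as a pair of p35 and EBI3. IL-15 is held on the receptor chain IL-15Ra at the dendritic cell surface and sustains NK cells and memory CD8+ T cells. Ifnb1 encodes interferon-beta, a type I interferon, and Ifnl2 and Ifnl3 encode the type III interferons (interferon-lambda), which cDC1 are known to make after double-stranded RNA is sensed by TLR3.

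The cells were CD103+ cDC1 grown from C57BL/6 mouse bone marrow with GM-CSF and FLT3L and sorted. All 52 libraries share this source, and each of 13 groups has 4 replicates, lettered A to D. The 9 groups kept for 4 h were untreated, PGE2 at 100 ng/ml, medium conditioned by control BRAFV600E melanoma cells, medium from Ptgs1/Ptgs2-/- BRAFV600E cells (which lack both cyclooxygenases that make prostaglandins), and PGE2 with an antagonist of a PGE2 receptor given 30 min earlier at 5 uM. The antagonists were SC-19220 for EP1, PF-04418948 for EP2, L-826,266 for EP3 and a further compound for EP4, and 1 group is titled as receiving EP2 and EP4 antagonists. The treatment label of that last group lists SC-19220, the EP1 compound, with the EP4 compound, so title and label disagree. The other 4 groups, labelled 24 h, were untreated, PGE2, poly I:C alone and both agents. Poly I:C is a synthetic double-stranded RNA, given here at 10 ug/ml for 4 h. Whether these 4 h lie within the 24 h or follow them is not stated in the labels. If they follow, the poly I:C groups were also cultured longer than the groups they are compared with. A part of such added time in the poly I:C differences was not tested. The labels do not say whether the replicates are separate mice or cultures, so the p-values rest on the spread between samples, and this spread may be technical. In bulk RNA, fewer cells making a transcript and less of it per cell cannot be told apart.

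Libraries held 42666 to 438491 counts, with a median of 295484.5. The 2 below 100000 counts are replicate A of the EP4 antagonist group (42666) and of the untreated group at 4 h (54107). All 12 cDC1 markers had counts in each of the 13 groups, and at 24 h their summed level was 9489 to 9916 CPM in untreated cells and 5022 to 5631 CPM under poly I:C. The 12 macrophage and monocyte markers summed to 1194 to 1618 CPM in untreated cells at 24 h, mainly Lyz2, and to 506 to 682 CPM under poly I:C, where Adgre1, Mertk, Apoe and Cd14 were at 0. Fcgr1 of that list went the other way, from 1 count in untreated cells to 20 under poly I:C and 42 with PGE2 and poly I:C. Summed markers of plasmacytoid dendritic cells, the other dendritic cells known for interferon, went from 116 to 178 CPM to 618 to 811 CPM. Bst2, itself induced by interferon, made up 597 of the mean of 690.1 CPM. Tcf4 also rose, Ly6d went from 2 to 8 counts and Ccr9 from 22 to 10, Cox6a2 was at 0 and Siglech had 1 count in the 4 poly I:C libraries. Klk1 was at 0 in all groups. Lymphocyte and NK markers, of which 8 of 12 listed were analysed here, summed to at most 20.3 CPM in any library. This highest value was in the EP4 antagonist group. The part of other cells in the results was not tested.

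Before the values, the sequences before the RefSeq start of 5 members are shown. Of these, 3 are for genes of different roles (an interferon, an inflammatory cytokine and the p40 chain) and 2 are for near copies. RefSeq promoter windows (GRCm38.p6) were matched for 7 of the 9 members, and the 250 bases before each start were searched on both strands for letters read by interferon regulatory factors (GAAANNGAA), NF-kB (GGANNTTCC), AP-1 (TGANTCA) and CREB-type factors (TGACGTCA). These letters occur in 7.13%, 3.59%, 6.75% and 1.55% of 32851 promoter windows of the same length. Capitals mark a match in the windows of Ifnb1 (chr4:88522795-88523044, minus strand), Il6 (chr5:30012864-30013113, plus strand) and Il12b (chr11:44399813-44400062, plus strand), read in the direction of each gene.
Ifnb1: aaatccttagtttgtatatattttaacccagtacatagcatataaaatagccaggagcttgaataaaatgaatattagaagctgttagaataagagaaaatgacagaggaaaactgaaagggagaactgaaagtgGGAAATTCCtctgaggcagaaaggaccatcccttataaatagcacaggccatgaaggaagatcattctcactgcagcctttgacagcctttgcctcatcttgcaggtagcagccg
Il6: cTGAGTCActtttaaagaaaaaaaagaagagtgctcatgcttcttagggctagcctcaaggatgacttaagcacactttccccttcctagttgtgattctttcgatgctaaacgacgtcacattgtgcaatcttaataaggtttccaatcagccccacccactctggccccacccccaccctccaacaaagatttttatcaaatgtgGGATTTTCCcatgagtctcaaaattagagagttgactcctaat
Il12b: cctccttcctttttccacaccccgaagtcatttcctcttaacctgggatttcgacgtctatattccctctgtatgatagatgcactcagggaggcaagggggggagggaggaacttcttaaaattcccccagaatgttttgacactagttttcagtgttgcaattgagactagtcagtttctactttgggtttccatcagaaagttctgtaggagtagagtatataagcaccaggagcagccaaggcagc
The Ifnb1 window holds 1 NF-kB match, 107 to 115 bases before the RefSeq start used. It holds no GAAANNGAA match, and letters of interferon regulatory factors with another spacing were not searched. The Il6 window holds 1 NF-kB match at 35 to 43 bases and 1 AP-1 match at 243 to 249 bases before the start. None of the 4 sets of letters was found in the windows of Il12b, Ebi3, Ifnl2 and Ifnl3, and the 2 windows of Il12a held 1 NF-kB match between them. The windows of Ifnl2 and Ifnl3 may hold transcribed sequence, as described below. A match describes letters, not a bound site.

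Ifnl2 (chromosome 7, 28508836 to 28510455, minus strand) and Ifnl3 (chromosome 7, 28522836 to 28524322, plus strand) lie 12380 bases apart on opposite strands. From the bases before the RefSeq starts used, 155 that lie outside the annotated genes are shown. Differing bases are in capitals (Ifnl2 chr7:28510456-28510610, minus strand, Ifnl3 chr7:28522586-28522740, plus strand).
Ifnl2: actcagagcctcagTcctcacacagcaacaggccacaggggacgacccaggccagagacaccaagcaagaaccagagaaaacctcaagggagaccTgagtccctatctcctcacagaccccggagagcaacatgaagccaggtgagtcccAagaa
Ifnl3: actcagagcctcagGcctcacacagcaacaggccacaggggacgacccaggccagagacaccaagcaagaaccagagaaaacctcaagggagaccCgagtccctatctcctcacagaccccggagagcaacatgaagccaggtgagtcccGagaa
Only 3 of the 155 bases differ. Both stretches hold atgaagccaggtgagt, which has the letters of a start codon (atg) and then of a splice site (gtgagt). The start used for Ifnl2 also lies inside its annotated gene. These windows may thus be transcribed sequence, and whether they cover the regulatory regions of the pair was not tested. The longest annotated transcripts of the pair (GENCODE vM21) were identical at 97.1% of 582 aligned bases, so reads of one can be counted for the other, and their separate values are uncertain. The other members lie on chromosomes 3 (Il12a), 11 (Il12b), 7 (Il27), 17 (Ebi3), 8 (Il15), 5 (Il6) and 4 (Ifnb1).

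Without poly I:C, Il12b and Ebi3 were the members counted in all 44 libraries, with 917 and 1050 counts in all. Il15 had 169 counts in 41 of these 44 libraries, Il27 had 44 counts in 29 and Il6 had 19 counts in 14. The interferon genes were at or near 0: Ifnb1 had no count, Ifnl2 had 5 counts in 4 libraries and Ifnl3 had 2 counts in 1. Il12a had 3 counts in the whole study, 1 each in replicate C of the EP2 antagonist group, replicate B of the EP3 antagonist group and replicate A of the group titled EP2 and EP4 antagonists. It had none in the 16 libraries of 24 h, poly I:C included, where 3 counts over the 4 poly I:C libraries would be 3.79 CPM. The transcript of the p35 chain of IL-12 was therefore at or below the detection limit, while that of the p40 chain was counted in every library. Whether depth or the capture of transcript ends plays a part was not tested. Il23a, the partner of p40 in IL-23, had 0 counts in 52 libraries. Levels are in CPM, UMI counts scaled for library size and composition. The scaling factors were 0.622 to 0.640 in the 8 poly I:C libraries and 1.01 to 1.21 in the others, which raises poly I:C levels relative to plain library totals.

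Poly I:C alone was compared with untreated cells to ask how these cytokine genes respond to double-stranded RNA. All 7 members that could be tested were higher by edgeR's quasi-likelihood test, where 31.3% of the 5273 genes tested were called higher. Il27, Il15, Il6, Ifnl2 and Ifnl3 passed the expression filter only through poly I:C groups, so they had to differ, and the count of 7 is a description. On library totals alone all 7 were still called higher, while the median log2 fold change of all genes moved from -0.10 to -0.87. Il12b was at 48.5, 33.9, 78.8 and 59.4 CPM in untreated replicates A to D and at 3688, 4330, 4286 and 3798 CPM under poly I:C. Every poly I:C library was far above every untreated one, a log2 fold change of 6.10 ± 0.14 (SE, n = 4 and 4, adjusted p = 1.0e-95, edgeR). Ebi3 went from 88.9, 93.1, 90.0 and 75.9 CPM to 1565, 1502, 1385 and 1796 CPM. Its groups did not overlap, and the log2 fold change was 4.07 ± 0.14 (SE, adjusted p = 1.0e-67, edgeR).

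Il27, the partner of Ebi3, was at 8.08, 2.82, 0 and 13.2 CPM in untreated cells, from 8 counts in all, and at 495, 737, 590 and 448 CPM under poly I:C. The transcripts of both chains of IL-27 thus rose, Il27 by a log2 fold change of 6.42 ± 0.29 (SE, adjusted p = 3.6e-51, edgeR). For Il15 the untreated libraries held 16.2, 28.2, 19.7 and 9.90 CPM and the poly I:C libraries 391, 416, 552 and 403 CPM. Replicate C stood above the other 3, and the groups did not overlap (log2 fold change 4.44 ± 0.24, SE, adjusted p = 2.0e-42, edgeR). Il6, an inflammatory cytokine, had 0, 3, 1 and 0 counts untreated and 13, 16, 13 and 13 counts under poly I:C, or 74.8, 88.7, 60.8 and 58.2 CPM. The log2 fold change of Il6 was 4.31 ± 0.57 (SE, adjusted p = 1.3e-11, edgeR), with a wider error because the untreated level rests on 4 counts. Il27, Il15 and Il6 passed the expression filter only through poly I:C groups, so their p-values here are a description.

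**Figure D1:**
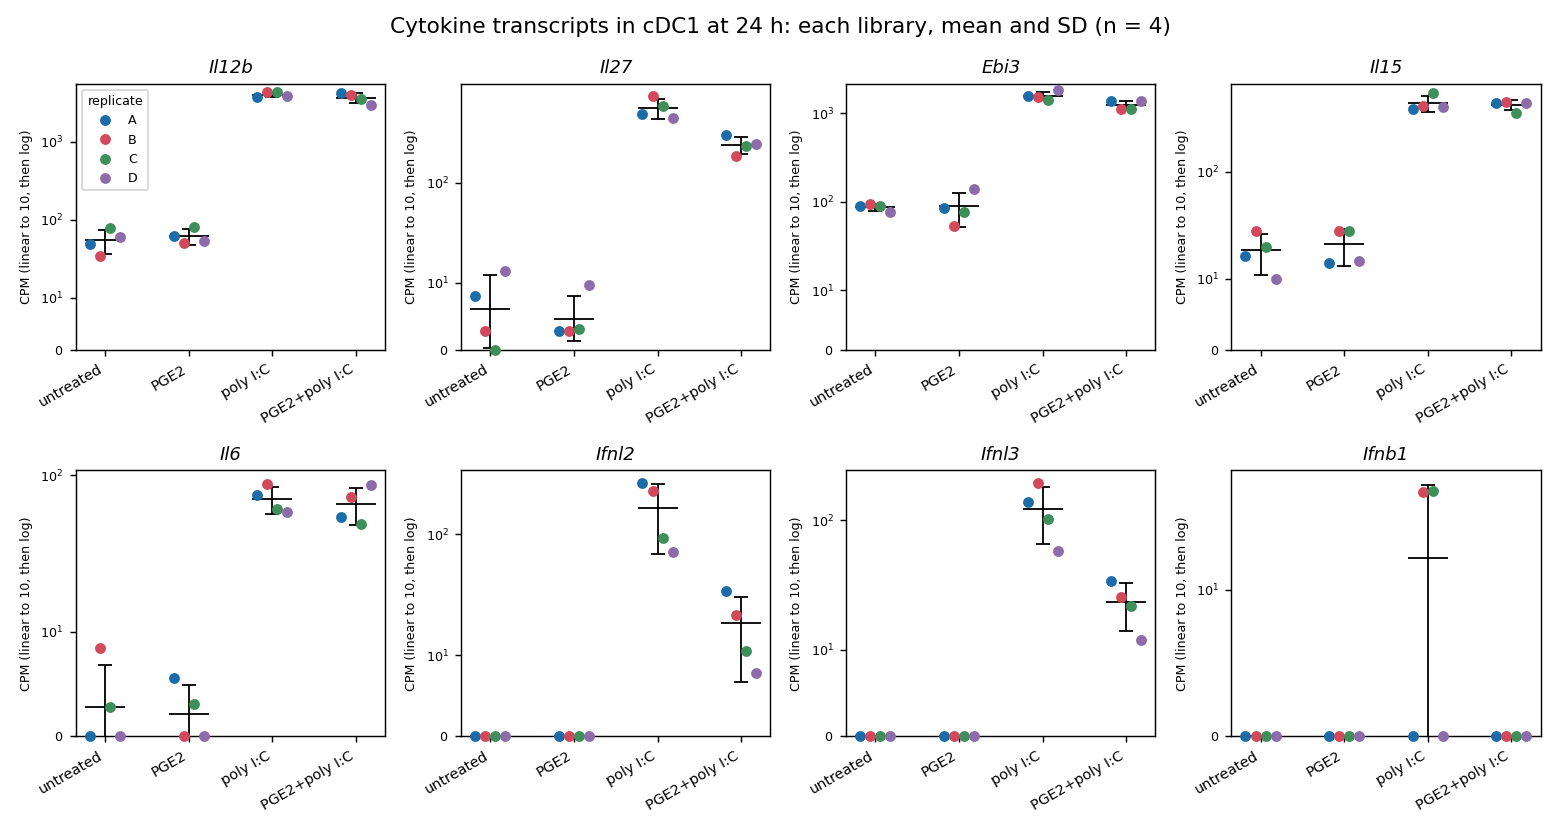
Levels of 8 members in the 4 groups of 24 h, in CPM on an axis that is linear up to 10 and logarithmic above. Points are single libraries coloured by replicate letter, and black bars show the mean and SD of 4 libraries. Il12b, Il15 and Il6 overlap between both poly I:C groups. Il27, Ifnl2 and Ifnl3 sit lower when PGE2 was present, and Ebi3 does so by a small margin.

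Ifnl2 and Ifnl3 had no count in untreated cells at 24 h. Under poly I:C, Ifnl2 had 46, 41, 20 and 16 counts (265, 227, 93.6 and 71.7 CPM) and Ifnl3 had 24, 35, 22 and 13 counts (138, 194, 103 and 58.2 CPM). All 4 poly I:C libraries held both transcripts. With a limit of 3 counts over the 4 untreated libraries together (2.17 CPM), Ifnl2 was at least 71.7-fold higher and Ifnl3 at least 54.8-fold higher (adjusted p = 4.9e-21 and 6.8e-20, edgeR). Both genes passed the expression filter through the poly I:C group alone, so these p-values are a description. Ifnl2 took 47.6% to 65.7% of the pair's counts in the poly I:C libraries. Added together, the pair had 70, 76, 42 and 29 counts, or 288 ± 146 CPM (SD, n = 4).

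Ifnb1 was counted in 2 libraries of the study. Both are poly I:C libraries, with 5 counts in replicate B and 6 in replicate C (27.7 and 28.1 CPM), while replicates A and D had 0. The pooled poly I:C level was 6.41-fold above the limit of 2.17 CPM in untreated cells, but 2 of 4 libraries held no count. The two-sided exact permutation test gave p = 0.429. The smallest p that 4 against 4 allows is 0.0286. A library with 0 counts allows a level of up to 3 counts, which is 13.4 to 17.3 CPM in the poly I:C libraries, 8.08 to 9.90 CPM in untreated libraries at 24 h and 6.11 to 60.9 CPM at 4 h. Pooled over a group, the limit lies between 1.82 and 3.79 CPM. These limits cover counting error only. The 17 other type I interferon genes of a list were not analysed here.

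**Figure D2:**
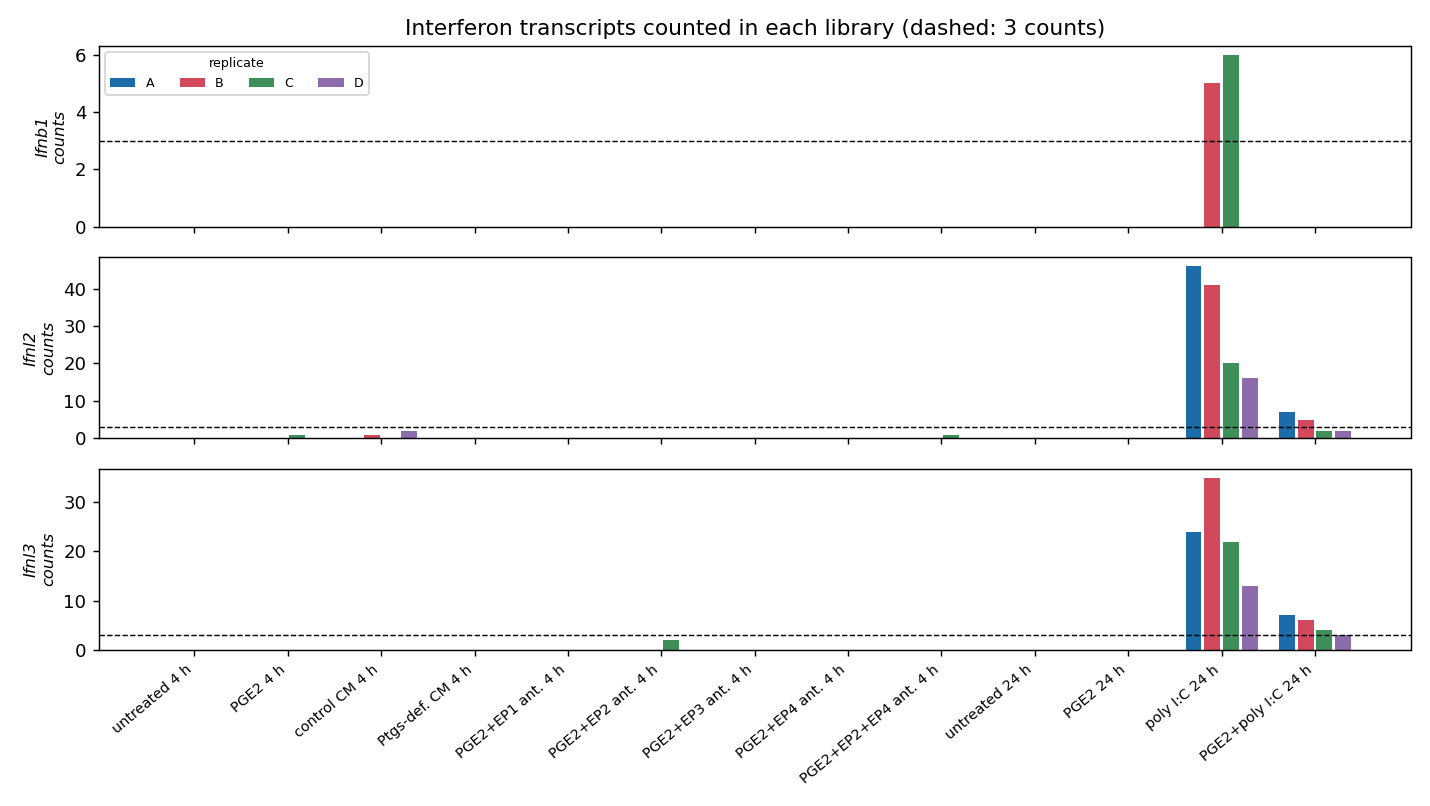
Raw counts of Ifnb1, Ifnl2 and Ifnl3 in each of the 52 libraries, as bars grouped by treatment and coloured by replicate letter, with a dashed line at 3 counts. Counts above 3 occur in the poly I:C groups alone, and Ifnb1 has bars in 2 libraries.

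PGE2 with poly I:C was compared with poly I:C to ask whether prostaglandin alters these transcripts in stimulated cells. Ifnl2, Ifnl3, Il27 and Ebi3 were lower, and Il12b, Il15 and Il6 were not called, where 5.65% of the 5273 genes tested were called lower. Ifnl2, Ifnl3 and Il6 passed the expression filter through the poly I:C group alone, which favours a lower value with PGE2. The count is thus a description, and the p-values of these genes carry the same limit. Summed cDC1 markers were at 5052 to 5827 CPM with PGE2, against 5022 to 5631 CPM. Irf8 alone made up 3936 of the mean of 5515 CPM with PGE2, and genes of this list moved both ways. Ppt1 (-1.87 ± 0.18), Xcr1 (-1.23 ± 0.23) and Naaa (-0.75 ± 0.19) were called lower and Irf8 (0.34 ± 0.08) higher (log2 fold change, SE, edgeR). The other tested genes of the cDC1 list were not called. Macrophage and monocyte markers were at 442 to 490 against 506 to 682 CPM, plasmacytoid markers at 882 to 1217 against 618 to 811 CPM and cDC2 markers at 54.6 to 63.1 against 11.5 to 28.1 CPM, and their part in the result was not tested. Ifnl2 had 7, 5, 2 and 2 counts with PGE2 (34.3, 21.5, 10.9 and 7.89 CPM), and each of these libraries was below each poly I:C library. The mean dropped from 164 to 18.6 CPM. This is a log2 fold change of -3.09 ± 0.41 (SE, n = 4 and 4, adjusted p = 1.6e-09, edgeR). Ifnl3 had 7, 6, 4 and 3 counts (34.3, 25.7, 21.8 and 11.8 CPM), again below all 4 poly I:C libraries. Its mean dropped from 123 to 23.4 CPM, and the fitted log2 fold change was -2.37 ± 0.41 (SE, adjusted p = 2.1e-06, edgeR). With the counts of the near copies summed, the log2 fold change was -2.76 ± 0.37 (SE, adjusted p = 1.7e-06, edgeR) and does not involve the split of reads between them. Ifnb1 had no count in the 4 libraries with PGE2 and poly I:C. Its pooled poly I:C level was 4.05-fold above the pooled limit of these libraries, 3.43 CPM, but rests on 2 libraries with a count. A lower level was not established, with an exact permutation p = 0.429.

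Il27 stood at 299, 185, 235 and 245 CPM with PGE2 and poly I:C, all below the lowest poly I:C library at 448 CPM. The log2 fold change of Il27 was -1.24 ± 0.17 (SE, adjusted p = 1.6e-09, edgeR). Mean levels were 567 ± 128 and 241 ± 46.9 CPM (SD). Ebi3, its partner, stood at 1353, 1124, 1118 and 1365 CPM. These values lie below the lowest poly I:C library at 1385 CPM, but by a small margin, with a log2 fold change of -0.33 ± 0.11 (SE, adjusted p = 0.026, edgeR). The Ebi3 call was lost with DESeq2 (adjusted p = 0.072) and without any 1 of 3 libraries, poly I:C replicate D (0.153) or PGE2 and poly I:C replicates B (0.111) and C (0.0835). The transcript of the p28 chain of IL-27 was lower by 2.36-fold. For that of the EBI3 chain the fitted difference was 1.26-fold, with a call that depends on these choices.

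Il12b, the p40 chain, stood at 4156, 3990, 3519 and 2947 CPM with PGE2 and poly I:C. These values overlap the poly I:C libraries, and the difference was not called (log2 fold change -0.14 ± 0.09, 95% interval -0.31 to 0.04, adjusted p = 0.387, edgeR). Il15 stood at 446, 455, 360 and 442 CPM, with replicate C the lowest here and the highest under poly I:C. Its log2 fold change was -0.05 ± 0.15 (95% interval -0.35 to 0.26, adjusted p = 0.913, edgeR). Il6 stood at 53.9, 72.9, 49.1 and 86.8 CPM, a log2 fold change of -0.07 ± 0.36 (95% interval -0.78 to 0.65, adjusted p = 0.952, edgeR). The interval for Il12b is narrow, and that for Il6 is wide. Whether the members that were called fell more than those that were not was not tested.

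**Figure D3:**
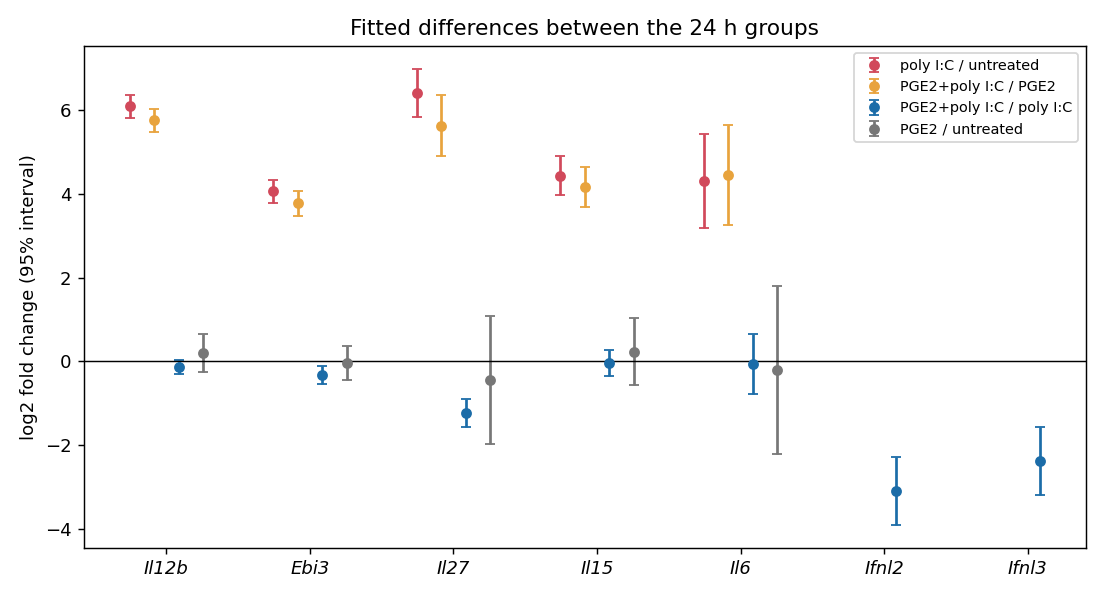
Fitted log2 fold changes with 95% intervals for 4 comparisons of the 24 h groups, coloured by comparison. For Ifnl2 and Ifnl3 the plot shows PGE2 with poly I:C against poly I:C, since their fold changes against groups at 0 are bounds. Points for poly I:C lie between 3.78 and 6.42, and the points for PGE2 with poly I:C against poly I:C lie between -3.09 and -0.05.

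Poly I:C was also compared within PGE2-treated cells. The same 7 members were higher there, where 30.8% of the 5273 genes tested were called higher. Il27, Il15, Il6, Ifnl2 and Ifnl3 passed the expression filter only through poly I:C groups. This favours a rise here too, so the count is a description. The log2 fold changes were 5.77 ± 0.14 for Il12b, 5.64 ± 0.37 for Il27, 3.78 ± 0.15 for Ebi3, 4.17 ± 0.24 for Il15 and 4.45 ± 0.60 for Il6 (SE). Ifnl2 and Ifnl3 had no count with PGE2 alone and were at least 7.59-fold and 9.49-fold higher with poly I:C (pooled limit 2.41 CPM). The difference between the 2 responses, the interaction, was called for none of the 5 members for which it could be estimated, where 3.28% of genes were called (DESeq2 also called none, and none had an unadjusted p under 0.05). It was -0.33 ± 0.25 for Il12b, -0.78 ± 0.95 for Il27, -0.29 ± 0.23 for Ebi3, -0.27 ± 0.43 for Il15 and 0.14 ± 1.00 for Il6 on the log2 scale (SE). The error for Il27 is large because its level without poly I:C rests on 8 and 5 counts. For Ifnl2 and Ifnl3 no interaction can be estimated, since both groups without poly I:C are at 0.

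PGE2 alone for 24 h was compared with untreated cells. None of the 5 members tested was called by edgeR, where 7.97% of genes were (no unadjusted p under 0.05, and none called by DESeq2). Il12b was at 61.9, 50.2, 80.4 and 53.1 CPM, overlapping the untreated libraries, with a log2 fold change of 0.19 ± 0.23 (SE, 95% interval -0.26 to 0.65). Ebi3 was at 84.4, 53.0, 77.3 and 140 CPM, where replicate D was high and B low, with a log2 fold change of -0.04 ± 0.21 (SE, 95% interval -0.44 to 0.37). Il15 averaged 21.1 ± 7.84 CPM against 18.5 ± 7.65 CPM (SD, n = 4), and Il27 and Il6 had 5 and 3 counts in the group. Between 24 h and 4 h, untreated cells showed no call for Il12b or Ebi3 (4.33% of 5403 genes called), and the PGE2 effect at 24 h did not differ by test from that at 4 h for either (4.35% called). In both comparisons neither gene had an unadjusted p under 0.05 and DESeq2 called neither.

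At 4 h the study asked what tumour-derived prostaglandin does to cDC1, through conditioned media and receptor antagonists. Il12b and Ebi3 were the members with enough counts to be fitted, and neither was called in any of 9 comparisons by edgeR or DESeq2. The background was 8.57% of 5754 genes called for PGE2 against untreated, 3.95% for control against Ptgs-deficient medium, 7.56% for control medium against untreated and 0.0869% for Ptgs-deficient medium against untreated. Against PGE2 alone, 0% were called with the EP1 antagonist (0 by edgeR and by DESeq2, 276 at an unadjusted p under 0.05), 0.417% with the EP2, 0.0695% with the EP3 and 0.0348% with the EP4 antagonist, and 9.52% in the group titled EP2 and EP4 antagonists. At an unadjusted p under 0.05 there was 1 value among the 18, for Il12b with the EP4 antagonist.

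Il12b was at 107, 67.3, 54.6 and 39.8 CPM in untreated cells at 4 h and at 47.0, 115, 66.7 and 39.1 CPM with PGE2. The ranges were nearly the same, with a log2 fold change of 0.27 ± 0.56 (SE, 95% interval -0.88 to 1.41, adjusted p = 0.874, edgeR). Each of these libraries holds 7 to 30 counts of Il12b. Control medium gave 65.6, 51.2, 107 and 68.4 CPM and Ptgs-deficient medium 65.5, 36.4, 72.1 and 72.5 CPM (log2 fold change 0.25 ± 0.52, SE). With the EP1, EP2 and EP3 antagonists the means were 74.3, 53.2 and 53.3 CPM, from libraries at 52.2 to 93.6, 25.2 to 75.1 and 32.5 to 80.3 CPM. The group titled EP2 and EP4 antagonists averaged 67.9 ± 37.6 CPM, with a log2 fold change against PGE2 of -0.08 ± 0.51 (SE).

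With the EP4 antagonist Il12b was at 446, 65.9, 298 and 62.7 CPM. Replicates A and C were high, from 22 and 100 counts, and B and D lay within the range of the PGE2 group. The log2 fold change was 1.38 ± 0.49 (SE, unadjusted p = 0.0086, adjusted p = 0.636, edgeR). It was 1.13 without replicate A, the library of 42666 counts, and 0.73 without replicate C. The 4 values of Ebi3 in that group, 101, 91.5, 101 and 106 CPM, did not split in this way.

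**Figure D4:**
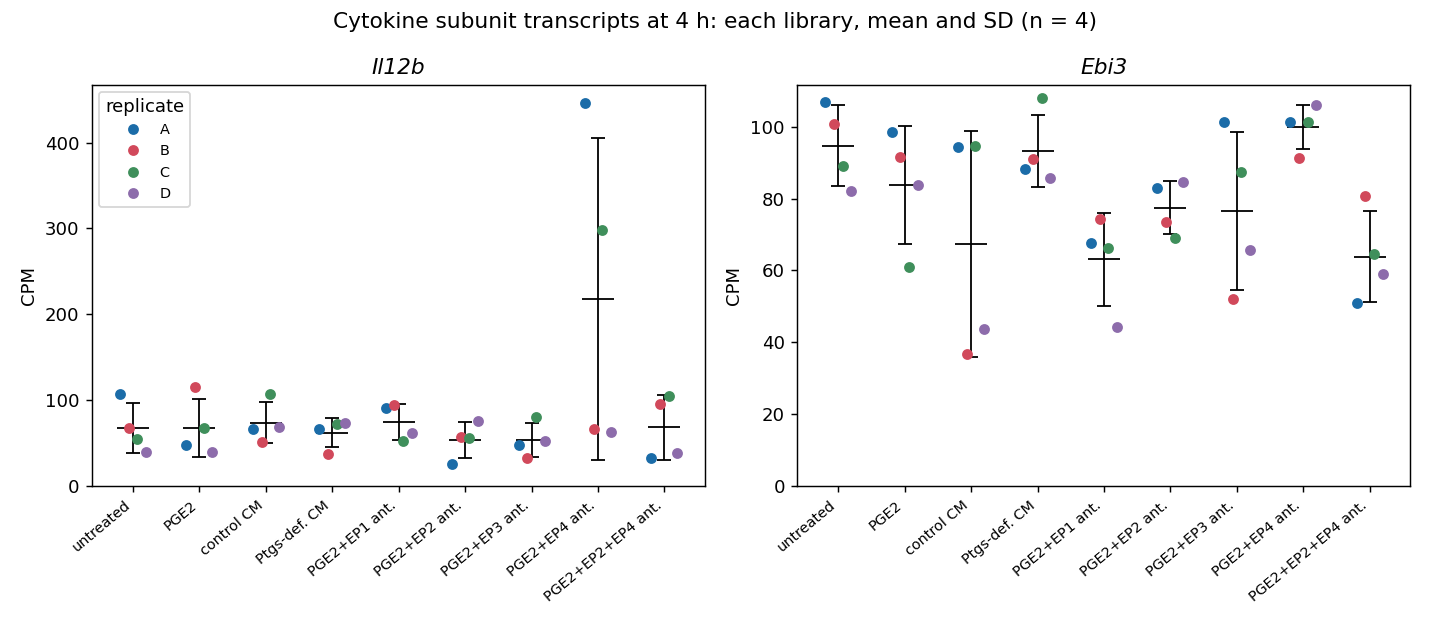
Levels of Il12b and Ebi3 in the 9 groups of 4 h, in CPM on linear axes from 0. Points are libraries coloured by replicate letter, and black bars show the mean and SD of 4 libraries. Replicates A and C of the EP4 antagonist group lie at 446 and 298 CPM of Il12b, above all other libraries of 4 h.

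Ebi3 at 4 h was at 107, 101, 89.0 and 82.2 CPM untreated and at 98.8, 91.7, 60.9 and 83.8 CPM with PGE2 (log2 fold change -0.16 ± 0.26, SE, adjusted p = 0.812, edgeR). Control medium gave 94.3, 36.6, 94.8 and 43.8 CPM, a split between replicates A and C and replicates B and D. Ptgs-deficient medium gave 88.3, 91.0, 108 and 85.7 CPM, and the difference between the media was -0.51 ± 0.26 on the log2 scale (SE, 95% interval -1.02 to 0.01, adjusted p = 0.376, edgeR). In the group titled EP2 and EP4 antagonists Ebi3 averaged 63.8 ± 12.7 CPM, a log2 fold change of -0.38 ± 0.26 (SE) against PGE2. The EP4 antagonist difference for Ebi3 was 0.29 ± 0.27 (SE). Members under the filter were compared by 44 exact permutation tests over both times, 0 of which had p under 0.05. Il15 had 10 to 17 counts in each group of 4 h, Il27 had 1 to 5 and Il6 had 0 to 3. Ifnl2 reached 3 counts in the control medium group and Ifnl3 had 2 counts in the EP2 antagonist group.

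The genes around the members were taken from lists. Of 35 interferon-stimulated genes, the targets of interferon receptors, 30 were tested at 24 h. With poly I:C 30 of 30 were higher, with a median log2 fold change of 5.93 against -0.10 over all genes tested. In untreated cells 22 of the 30 had a mean below the filter of 31.2 CPM, so their direction was largely set by the filter and the count is a description. Over all genes 65.0% were called in this comparison, 1651 higher and 1777 lower. Rsad2 (8.18 ± 0.21) and Ifit1 (7.90 ± 0.20), both antiviral effectors, and the chemokine genes Cxcl10 (7.44 ± 0.14) and Cxcl9 (7.42 ± 0.19) led them (log2 fold change, SE). With PGE2 added, 5 were higher and 8 lower than with poly I:C, with a median of -0.03 against -0.01 over all genes. Over all genes 10.7% were called there, 265 higher and 298 lower, and both shares also stand behind the counts of the lists that follow. Ifit3 (1.12 ± 0.12), Gbp2 (0.91 ± 0.10) and Ifit3b (0.87 ± 0.15) were higher and Rsad2 (-0.99 ± 0.11) was lower by the largest amounts.

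Of 13 receptor chains for the members, 8 were tested at 24 h, and poly I:C raised 5 and lowered 3, with a median of 1.06. In untreated cells 3 of the 8, Il2rg, Il15ra and Il12rb2, had a mean below the filter of 31.2 CPM. This favours a rise, so the count is a description. Il2rg, the chain that IL-15 shares with other cytokines, rose by 5.60 ± 0.32, and Il15ra, which presents IL-15, by 4.76 ± 0.44. Il12rb2, a chain of the IL-12 receptor, rose by 3.05 ± 0.38, and Il6ra fell by 2.73 on the log2 scale. With PGE2 added, Il6st, the signalling chain for IL-6 and IL-27, was higher (1.31 ± 0.35), and Il12rb2 (-1.10 ± 0.32) and Il10rb (-0.79 ± 0.23), a chain of the interferon-lambda receptor, were lower. The Il15ra difference was -0.36 ± 0.27 and not called, and the median of the 8 was 0.01. Ifnlr1, the specific chain for interferon-lambda, had 2, 1, 1 and 1 counts in the poly I:C libraries (a mean of 6.55 CPM, where 3 counts over the group are 3.79 CPM), 0 in the other groups of 24 h and 5 at 4 h. Il27ra had 5 counts and Il12rb1 10 counts in the whole study, with at most 2 in a group.

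Of 25 genes of the TLR3 route and of cytokine gene control, 17 were tested at 24 h, and poly I:C raised 14 and lowered 3, with a median of 2.79. Of the 17, 6 had an untreated mean below the filter, Ifih1, Irf7 and Ddx58 among them. This favours a rise, so this count too is a description. Ifih1 (6.56 ± 0.20), a sensor of double-stranded RNA, Irf7 (6.51 ± 0.17), a factor that drives interferon genes, Ddx58 (6.33 ± 0.60) and Relb (5.13 ± 0.15) rose most. Tlr3 itself was below the filter, with 45 counts in untreated cells and 3 under poly I:C. It had 22 counts with PGE2 alone at 24 h and 4 with PGE2 and poly I:C. At 4 h it had 28 counts in untreated cells and 7 with PGE2, and these differences were not tested. With PGE2 added, 4 were higher and 1 lower, with a median of -0.005: Rel (0.59 ± 0.15) and Relb (0.34 ± 0.10), NF-kB subunits, and Irf8 (0.34 ± 0.08) were higher, and Ifih1 (-0.57 ± 0.11) was lower. PGE2 alone for 4 h raised Relb (1.55 ± 0.34) and Nfkb2 (1.48 ± 0.32) and lowered Batf3 (-2.21 ± 0.25) and Irf8 (-0.78 ± 0.11), the factors that define cDC1, without a call for Il12b or Ebi3. Of 10 JAK and STAT genes, 9 were tested at 24 h and 8 rose with poly I:C, with a median of 2.16. Here 3 of the 9 had an untreated mean below the filter. PGE2 with poly I:C gave more Stat4 (1.54 ± 0.41) and Jak2 (0.70 ± 0.15) and less Stat5a (-0.65 ± 0.16).

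Other cytokines that act on T and NK cells numbered 16, of which 5 were tested at 24 h. Poly I:C raised 3, Lta (7.22 ± 0.53) and Tnf (4.33 ± 0.24), which encode lymphotoxin-alpha and TNF, and Clcf1 (2.38 ± 0.27), and lowered Il18 (-0.98 ± 0.42), with a median of 2.38. Lta and Tnf, 2 of the 5, had an untreated mean below the filter, which favours a rise. With PGE2 added, Lta (-1.40 ± 0.28) and Tnf (-0.64 ± 0.17) were lower than with poly I:C and none was higher, with a median of -0.37. Values in these 4 paragraphs of lists are log2 fold changes with SE from edgeR, called at an adjusted p of 0.05.

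The genes whose group means followed each member most closely were ranked by Pearson's r of log2 CPM over the 13 groups among 6121 genes. For Il12b the first were Clic4, Nectin2, Nipal1, Arl5c and the chemokine gene Ccl5 (r of 0.993 to 0.995), and for Il27 Ppp4r2, Il15ra, Acod1, Itgb8 and Rsad2 (0.989 to 0.993). Ebi3 was closest to Slfn5, Rnf213, Tap1, Tgtp1 and Ogfr (0.992 to 0.996), Il15 to Snn, Znfx1, Parp9, Oasl2 and Hsd17b11 (0.989 to 0.991), and Il6 to Nr4a3, Ogfr, Ccl5, Trex1 and Il12b (0.992 to 0.995). The 2 poly I:C groups stand apart from the other 11, and between 328 and 357 genes had r above 0.95 with each of these 5 members. Ifnl2 and Ifnl3 had fewer such genes, 18 and 56. Ifnl2 was closest to Ifnl3, then to Pou3f1, Serpina3g, Ccl4 and Clip1 (0.971 to 0.990). Ifnl3 was closest to Pou3f1, then to Ifnl2, M1ap, Serpina3g and Macc1 (0.984 to 0.998). Over the 11 groups without poly I:C, r with the same genes was 0.78 to 0.85 for Il12b, 0.69 to 0.81 for Il6, 0.58 to 0.80 for Il15, 0.54 to 0.80 for Ebi3 and -0.0041 to 0.63 for Il27. For Ifnl2 and Ifnl3, with 5 and 2 counts in those groups, it was -0.46 to 0.68 and -0.30 to 0.75.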

How the data were processed

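Bone marrow-derived CD103+ cDC1 were profiled by bulk sequencing of the 3' ends of poly(A) RNA with molecular identifiers (UMIs). The authors, per the labels' protocols, counted UMIs per gene with the Drop-seq pipeline against GRCm38 and Ensembl release 75, and called genes with DESeq2. The submitters' processing notes give DESeq2 1.14.1 and GRCm38.p6. The deposited values are raw UMI counts, 1 table for 52 libraries. For the aligner, the strand setting and reads shared by similar genes the entry is: not given in the sources used here. One line with a text entry was left out. 20 symbols had become dates, hold 0.105% of counts and were kept under neutral names.

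Libraries held 42666 to 438491 counts. Levels (CPM) were scaled by TMM factors over 52 libraries. Differences were tested in edgeR 4.0.16 (R 4.3.3) by the quasi-likelihood test with Benjamini-Hochberg adjustment over all genes passing filterByExpr, at 0.05. The 4 h libraries (36), the 24 h libraries (16) and the 16 untreated and PGE2 libraries of both times were fitted separately. Members under the filter were compared by a two-sided exact permutation test of CPM. The fits were tested on simulated data. No pair of replicates differed by as little as sampling noise: over 78 pairs the chi-square per degree of freedom was 1.41 to 3.35. DESeq2 1.42.0, library totals, no filter, other sets of libraries, the replicate letter as a block and leaving out each library were tried as alternatives.

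The members, gene lists and tests were chosen with earlier results of these data known. All 9 members are described in every group. From each list, up to 4 called genes with the largest change are named, or up to 2 by role where none is called. For 7 members the 5 genes with the highest Pearson correlation of group means are named. Tlr3, Il23a, Ifnlr1, Il27ra, Il12rb1, single markers and Il15ra where it was not called were named after their values were seen.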

Additional observations from a re-analysis of the deposited data

Results flagged for a closer look

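In 37 combinations of member and group with at least 20 counts, the highest and the lowest of the 4 libraries were compared with the rest, and 2 stood apart by Dixon's criterion. Chance alone flags about 1 in 20 groups. Both concern Il15 and both are replicate C. Under poly I:C, replicate C held 552 CPM of Il15 (118 counts), where the other replicates held 391 to 416 CPM. With PGE2 and poly I:C, replicate C held 360 CPM (66 counts), where the others held 442 to 455 CPM. Leaving out either library turned the sign of the Il15 difference between these groups, which was not called in any fit.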

How the results depend on the processing

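The 7 members higher under poly I:C, with or without PGE2, were called under every alternative in which they were tested. Il27, Il15, Il6, Ifnl2 and Ifnl3 passed the expression filter only through poly I:C groups, so for them this is a description. With only the groups compared in the fit, Il6, Ifnl2 and Ifnl3 fell below the filter in the comparison of PGE2 and poly I:C with PGE2, which left 4 members called. Among the 4 members lower with PGE2 and poly I:C than with poly I:C, the calls for Il27, Ifnl2 and Ifnl3 held under all alternatives (adjusted p at most 0.00072). Ifnl2 and Ifnl3 passed the filter through the poly I:C group alone, which favours a lower value with PGE2. The call for Ebi3 was lost in 6 of 14: with DESeq2 (0.072), without a filter (0.206), with all 52 libraries in 1 fit (0.098), and without poly I:C replicate D (0.153), PGE2 and poly I:C replicate B (0.111) or replicate C (0.0835). The cause was not tested. Replicate letters were also fitted as a replicate block, and 68 values were compared with the main fit. These were log2 fold changes of members, counts of members called and counts of all genes called. Each of these fold changes kept its call and direction, and each count stayed within 1.5 times. For PGE2 and poly I:C against poly I:C, 4 members were called. Deviations of same-letter libraries correlated at -0.059 to 0.050 over the genes tested. Counting noise at this depth can hide a shared factor, so these values do not decide what the letters mean. In 1 of 14 comparisons 3 of the letters correlated best with their own partner, and in none all 4. No sign change concerned a called value. Leaving out each library gave log2 fold changes of -0.094 to 0.42 for Il12b with PGE2 at 4 h. The range was -0.39 to 0.27 for Il12b in the group titled EP2 and EP4 antagonists and -0.27 to 0.16 for Ebi3 with PGE2 at 24 h. Between PGE2 with poly I:C and poly I:C, it was -0.12 to 0.075 for Il15 and -0.24 to 0.076 for Il6. The interaction for Il6 ran from -1.08 to 0.99. Counts over all genes moved by over 1.5 times in some alternatives: from 227 to 141 for the 2 conditioned media without Ptgs-deficient replicate A, from 173 to 81 for the interaction, 234 to 151 for untreated cells at 24 h against 4 h, and 235 to 129 for the PGE2 effect between times, each without a filter. The 5, 24, 4 and 2 genes called with Ptgs-deficient medium and with the EP2, EP3 and EP4 antagonists ran from 0 to 10, 7 to 82, 0 to 9 and 0 to 3. Depth limits the low members: a library without a count allows up to 6.11 to 60.9 CPM.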
